A study of Homo sapiens with 4 samples.

Results

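The genes of the nuclear pore and of nuclear transport were followed in OCI-AML3, a human AML line grown in culture, after CRISPR editing of mutant NPM1 (mtNPM1). Members were the protein-coding rows of the count table whose symbol marks a numbered nucleoporin, an importin (KPNA, KPNB1, IPO, TNPO), an exportin (XPO, CSE1L), RAN, RCC1, RANGAP1 or a numbered Ran-binding protein. This gave 59 genes of the 58037 in the table, and 32 further rows with matching symbols were pseudogenes or non-coding RNAs and were left out. All cells were OCI-AML3, which is heterozygous for mtNPM1 and for a DNMT3A mutation and homozygous for an NRAS mutation, and were harvested 3 days (72 hours) after transfection. The 2 sgNeg libraries (sgRNA Ctrl in the study) came from cells given a control guide and the 2 sgNPM1A libraries from cells given the guide against mtNPM1. RNA was taken from the whole culture, and the share of edited cells is not given in the sources used here, so that edited and unedited cells are averaged, and fewer cells of a kind cannot be told apart from less RNA per cell.

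The nuclear pore is a large ring of proteins, the nucleoporins, that spans the nuclear envelope. Outer and inner rings form its scaffold, and nucleoporins rich in phenylalanine-glycine (FG) repeats fill its channel, through which larger cargo passes only when bound to a receptor. Importins carry proteins with a nuclear localization signal inward, exportins carry proteins with a nuclear export signal outward, and the small GTPase Ran, charged with GTP in the nucleus by RCC1 and discharged in the cytoplasm through RANGAP1, sets the direction. In AML with mtNPM1 the mutation adds an export signal to NPM1, and XPO1, the export receptor that binds it, carries the mutant protein to the cytoplasm. XPO1 is the target of selinexor.

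The RNA-Seq counts summed to between 25069483 and 28276386 per library, and 15718 genes passed the filter on low counts and were tested. Levels are given as normalised counts in CPM, the counts scaled to a common library total with edgeR's TMM factors, and differences as the log2 fold change (log2 value) of sgNPM1A against sgNeg. A call needed an adjusted p (Benjamini-Hochberg, over all tested genes, edgeR quasi-likelihood test) under 0.05 and a fold threshold, a level at least 25% higher or 20% lower, which is 0.322 on the log2 scale. NPM1 itself had 1317 and 1384 CPM with sgNeg and 1188 and 1131 CPM with sgNPM1A, which is -0.22 ± 0.07 (SE) on the log2 scale at an adjusted p of 0.0360 from edgeR and misses the fold threshold, and since its counts sum both alleles they do not measure the mutant transcript alone. The adjusted p of NPM1 was 0.156 when the replicate number entered as a block, and limma-trend on quantile-normalized values gave -0.42 on the log2 scale, so this check of the labels rests on the choice of model. Markers of myeloid cells were present, with PTPRC between 151 and 174 CPM and CD33 between 81.3 and 90.1 CPM in every library. LYZ, the lysozyme of myeloid cells, rose from 270.3 and 215 CPM to 2640.0 and 3364 CPM, and SPI1 and MPO were also called higher. Of 11 markers of erythroid, lymphoid, epithelial and fibroblast cells, 6 had no count in any library. Their summed level lay between 11.01 CPM (sgNPM1A 2) and 30.3 CPM (sgNeg 2), of which all but 1.33 to 2.16 CPM was COL1A2, which fell (log2 fold change -1.33, adjusted p = 3.11e-05, edgeR), while COL1A1 did not exceed 0.231 CPM. The part of these changes in the results below was not tested.

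Of the 59 genes, 55 were tested, and 2 were called, both lower with sgNPM1A: KPNB1, the importin beta that carries the classical import complex through the pore, and KPNA4, an importin alpha that binds the cargo for it. These are 3.64% of the tested members, where 20.8% of all tested genes were called (10.3% lower and 10.5% higher). None of the members was called higher by edgeR, by DESeq2 or by limma-trend. At an unadjusted p under 0.05 (edgeR) regardless of fold, 8 members were lower and 2, TNPO3 and XPO4, were higher. Over all 15718 tested genes 2981 were lower and 2915 higher at that unadjusted p. Without the fold threshold 5 members were lower and 1 higher, 6 of 55, beside 26% of all tested genes. The median log2 fold change was -0.06 over the tested members and 0.00 over all tested genes, and 38 members had a negative and 17 a positive value. The sizes of the differences were small among the members, with a median of 0.11 on the log2 scale regardless of sign, beside 0.22 over all tested genes and 0.16 over the 8559 protein-coding genes whose mean reached 10 CPM. In 31 members the sgNPM1A libraries did not overlap the sgNeg libraries, 56.4% of those tested, and in all tested genes this held for 63.1%. An exact permutation of 2 against 2 libraries has 0.333 as its smallest two-sided p, and edgeR reaches smaller values by borrowing the variance of other genes.

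**Figure D1:**
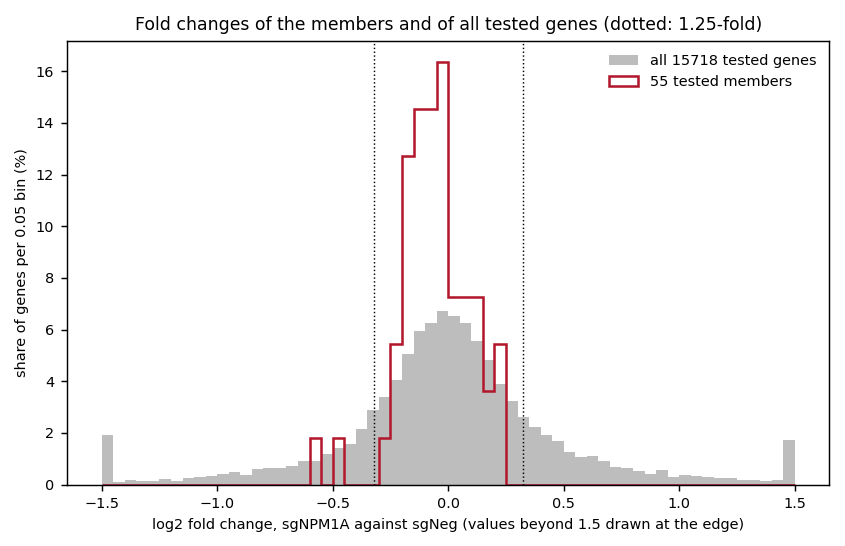
Share of genes (%, vertical axis) by log2 fold change of sgNPM1A against sgNeg (horizontal axis, bins of 0.05, values past either end of the axis drawn at its edge), for all 15718 tested genes (grey) and the 55 tested members (red line), with dotted lines at the fold threshold. All members but KPNB1 (-0.59) and KPNA4 (-0.48) lie between the dotted lines.

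The 4 members that were not tested had almost no counts. KPNA7, an importin alpha of oocytes and early embryos, and RANBP17, a relative of the exportins, had 0 counts in every library. RANBP3L had 1 count in sgNeg 1 and 1 in sgNPM1A 2. NUP62CL, a relative of NUP62, did not exceed 0.432 CPM. A count of 3, taken as the smallest that is told from 0, corresponds to between 0.108 and 0.118 CPM in these libraries and covers counting error only, so expression below that level was not detectable.

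Per length of the transcript, the Ran cycle held the most abundant members. RANBP1, which binds Ran-GTP in the cytoplasm, had the highest mean level over the 4 libraries, 326 CPM per kb, followed by RAN with 268 and KPNA2 with 221 CPM per kb. RANGAP1, KPNB1, RCC1, NUP62 and NUP85 followed with between 71.4 and 95.6 CPM per kb. XPO1, with 53.5 CPM per kb, stood beside XPO6 with 52.6, NUP210 with 52.4 and CSE1L with 51.8, and these neighbours do not differ beyond the spread of their libraries. At the low end KPNA5 had 0.280 and IPO4 0.210 CPM per kb, but 57.7% of the 50-base words of IPO4 transcripts also belong to an overlapping gene, ENSG00000259522, so that its counts may miss part of its reads. RANBP1 and RAN share 6.39% and 4.81% of their words with pseudogenes and other genes.

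**Figure D2:**
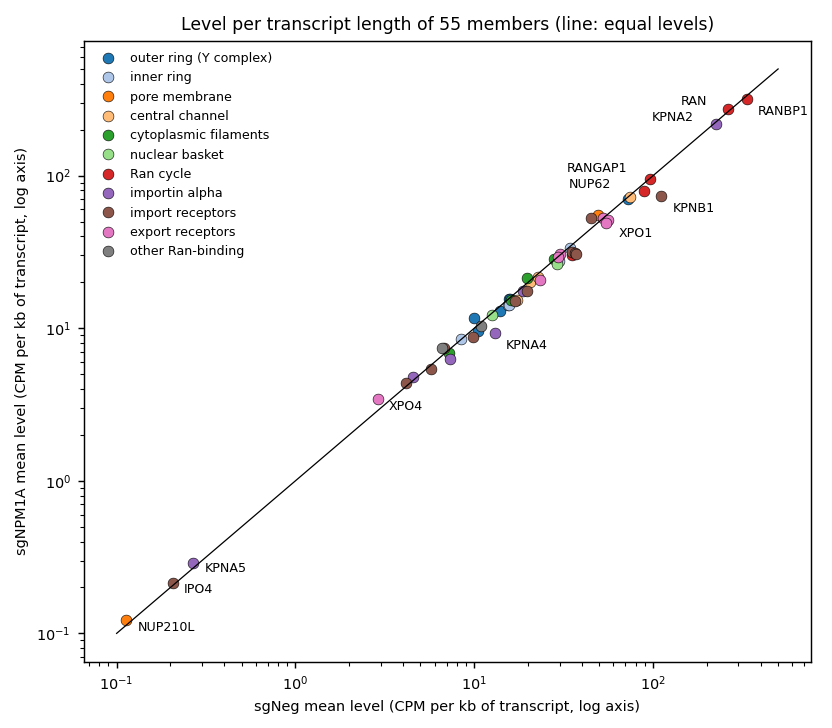
Mean level with sgNPM1A (vertical axis) against mean level with sgNeg (horizontal axis), both in CPM per kb of transcript on log axes, for the 55 tested members, with the line of equal levels. Points run from NUP210L near 0.118 to RANBP1 near 326 CPM per kb, and KPNB1 and KPNA4 lie below the line.

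Both calls lay in import, in 1 of the 12 import receptors (8.33%) and 1 of the 6 tested importin alphas (16.7%). Among all tested genes 20.8% were called. KPNB1 (ENSG00000108424) lies on chromosome 17 of GRCh38 from 47649919 to 47685505. It had 704 and 645 CPM with sgNeg and 449 CPM in each of the sgNPM1A libraries. Both sgNPM1A libraries were far below both sgNeg libraries, and the difference of the means, 674 ± 41.8 against 449 ± 0.142 CPM (SD, n = 2), was larger than the spread within either condition. KPNB1 fell by 33.5%, or by 0.59 ± 0.07 (SE) on the log2 scale, with a 95% interval from -0.74 to -0.43 and an adjusted p of 9.97e-05 (edgeR). Of its 50-base words 0.716% occur in other genes. Of the summed level per length of the 12 import receptors, KPNB1 made up 33.8% and 34.0% in the sgNeg libraries and 26.9% and 26.2% in the sgNPM1A libraries.

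The importin alphas bind the classical import signal and hand the cargo to KPNB1, and human cells have a family of them with overlapping preferences. KPNA4 (ENSG00000186432), on chromosome 3 from 160495007 to 160565571, had 127 and 106 CPM with sgNeg and 80.4 and 87.1 CPM with sgNPM1A. The conditions did not overlap, and the fall was 28.2%, that is -0.48 ± 0.09 (SE) on the log2 scale, with an adjusted p of 0.00242 (edgeR). Of its 50-base words 2.54% occur in other genes. KPNA3, the paralog most like KPNA4, had 34.0 and 27.8 CPM with sgNeg and 26.8 and 26.6 CPM with sgNPM1A, and its log2 fold change of -0.21 was not called (adjusted p = 0.162, edgeR). The sgNPM1A libraries of KPNA3 lay closer to the lower sgNeg library than the sgNeg libraries lay to each other. KPNA2, by far the most abundant of the family with between 83.3% and 85.2% of its summed level per length, had 485 and 408 CPM with sgNeg and 415 and 443 CPM with sgNPM1A. Its sgNeg libraries enclosed the sgNPM1A libraries, and the log2 fold change was -0.06 (95% interval from -0.24 to 0.13, adjusted p = 0.666, edgeR). KPNA1, KPNA5 and KPNA6 had log2 fold changes of 0.07, 0.11 and -0.11, none of them called. Whether the difference of KPNA4 differs from that of KPNA3 or KPNA2 was not tested.

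The other import receptors bind their cargo directly. IPO7, which imports ribosomal proteins and histone H1, had 241 and 217 CPM with sgNeg and 184 and 195 CPM with sgNPM1A, and passed the adjusted p but not the fold threshold (log2 fold change -0.27, adjusted p = 0.0164, edgeR). Of its 50-base words 10.5% occur in other genes, among them its pseudogene IPO7P2. Its paralog IPO8 had between 33.3 and 40.5 CPM in the 4 libraries, with conditions that overlapped and a log2 value of 0.13 (adjusted p = 0.309, edgeR). TNPO2, a transportin that imports RNA-binding proteins, had 193 and 178 CPM with sgNeg and 158 CPM in each sgNPM1A library (log2 fold change -0.23, adjusted p = 0.0254, edgeR). TNPO1, its close paralog, had 91.2 and 75.7 CPM with sgNeg and 68.7 and 79.9 CPM with sgNPM1A, which overlapped (log2 fold change -0.17, adjusted p = 0.255). TNPO3, the import receptor of SR splicing factors, had 204 and 188 CPM with sgNeg and 228 and 232 CPM with sgNPM1A, above both sgNeg libraries (log2 fold change 0.23, adjusted p = 0.0264, edgeR). IPO7, TNPO2 and TNPO3 each missed the fold threshold, and the adjusted p of each exceeded 0.05 in 3 of the 4 fits that left out a single library. IPO5, IPO9 and IPO13 had log2 fold changes between -0.18 and -0.15 and were not called (adjusted p between 0.0823 and 0.174, edgeR), and IPO11 and RANBP6 had -0.09 and 0.08. IPO4, at less than 1.1 CPM in each library, had an interval from -0.91 to 1.05, so that a change in either direction was not detectable at this depth.

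**Figure D3:**
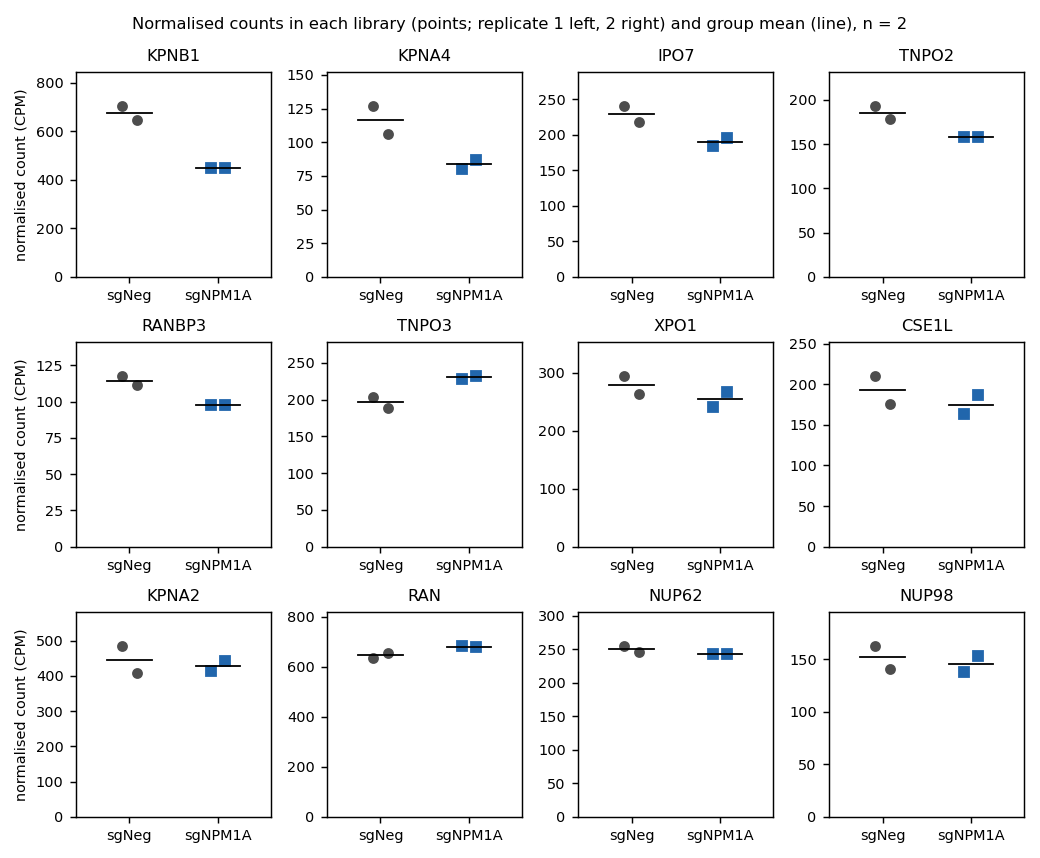
Normalised counts in CPM (vertical axis from 0) of 12 members in each sgNeg library (grey circles) and sgNPM1A library (blue squares), with replicate 1 on the left, replicate 2 on the right and the mean of n = 2 as a line. KPNB1 separates by more than the spread within each condition. KPNA4 does not overlap, but its conditions lie no further apart at their nearest libraries than its sgNeg libraries lie from each other. XPO1, CSE1L, KPNA2 and NUP98 overlap.

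The RefSeq sequence before a transcription start was available for 52 of the 59 members, and not for KPNB1, KPNA4, KPNA5, KPNA7, NUP43, RANBP1 and XPO7. RefSeq gives 1 start for each gene, which need not be its outermost, and for TNPO3 and XPO1 it lies inside the annotated span of the gene. Shown are the 250 bases up to that start, 5′ to 3′ on GRCh38, of IPO7 (chr11:9384402-9384651, plus strand) and RANBP3 (chr19:5978141-5978390, minus strand), which passed the adjusted p and whose windows hold no transcript sequence of the gene itself. Capitals mark the letters of an E-box (CACGTG, bound by MYC with MAX), a CCAAT box, a GC box (GGGCGG) and the E2F sites TTTCCCGC and TTTGGCGC, searched on both strands.
IPO7: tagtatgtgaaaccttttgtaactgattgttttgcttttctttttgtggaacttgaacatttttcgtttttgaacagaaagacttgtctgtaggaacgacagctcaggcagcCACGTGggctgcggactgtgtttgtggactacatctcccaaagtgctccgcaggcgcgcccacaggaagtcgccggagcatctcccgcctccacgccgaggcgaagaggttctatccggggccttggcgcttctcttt
RANBP3: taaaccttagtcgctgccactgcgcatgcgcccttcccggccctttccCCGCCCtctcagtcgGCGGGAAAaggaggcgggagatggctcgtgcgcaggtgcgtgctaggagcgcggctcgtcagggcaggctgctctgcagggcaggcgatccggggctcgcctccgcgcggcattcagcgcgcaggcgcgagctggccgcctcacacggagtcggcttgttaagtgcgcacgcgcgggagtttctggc

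CACGTG was present once before IPO7 and was not found before RANBP3, which held TTTCCCGC and GGGCGG once each. Among the 52 members 13.5% (7) held CACGTG, 46.2% (24) CCAAT, 55.8% (29) GGGCGG and 1.92% (1) TTTCCCGC. Of the 27305 RefSeq windows of the same length, 6.49%, 33.0%, 42.3% and 1.42% held them in that order. Those windows were not matched to the members by gene type or level, and the differences in share were not tested. TTTGGCGC was found in 0 members and in 0.553% of all windows. These matches describe the letters only, and binding was not measured here.

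XPO1 (ENSG00000082898), on chromosome 2 from 61477849 to 61538612, had 295 and 264 CPM with sgNeg and 241 and 267 CPM with sgNPM1A. The higher sgNPM1A library lay between the sgNeg libraries, so the conditions overlapped. The log2 fold change of XPO1 was -0.14 (standard error 0.08, adjusted p = 0.223, edgeR), with a 95% interval from -0.31 to 0.03, which ends just short of the fold threshold and includes 0. With 1 library left out its value was -0.06 without sgNeg replicate 1 and without sgNPM1A replicate 1, and -0.21 without sgNeg replicate 2 and without sgNPM1A replicate 2. CSE1L, the exportin that returns importin alpha to the cytoplasm, had 210.0 and 176 CPM with sgNeg and 163 and 187 CPM with sgNPM1A, also overlapping (log2 fold change -0.14, adjusted p = 0.295, edgeR). XPO5, which exports precursor miRNAs, had a log2 fold change of -0.16 and an interval from -0.33 to 0.01 (adjusted p = 0.156, edgeR). XPOT, the exportin of tRNA, XPO6, that of actin, and XPO7 had values between -0.02 and 0.02, each with an interval inside the fold threshold. XPO4 had the highest log2 fold change of the tested members, with 31.0 and 26.2 CPM with sgNeg and 32.2 and 35.7 CPM with sgNPM1A, and its value of 0.25 on the log2 scale was not called (adjusted p = 0.0980, edgeR). No export receptor was called by edgeR, DESeq2 or limma-trend, and 1 of the 7 tested, XPO4, had an unadjusted p under 0.05. Of all 15718 tested genes 20.8% were called, and 2981 were lower and 2915 higher at that unadjusted p.

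In the Ran cycle, no gene was called by edgeR, DESeq2 or limma-trend, with 2 of the 5 tested, RANBP3 and RCC1, at an unadjusted p under 0.05. Of all 15718 tested genes 20.8% were called, and 2981 were lower and 2915 higher at that unadjusted p. RAN had 636 and 656 CPM with sgNeg and 683 and 679 CPM with sgNPM1A. Both sgNPM1A libraries were above both sgNeg libraries, yet the log2 fold change was only 0.08 (95% interval from -0.07 to 0.22, adjusted p = 0.442, edgeR). RCC1, the exchange factor that loads Ran with GTP on chromatin, had 233 and 219 CPM with sgNeg and 203 and 202 CPM with sgNPM1A (log2 fold change -0.16, adjusted p = 0.101, edgeR), and 4.00% of its words are shared with its neighbour SNHG3. RANGAP1, the GTPase activator, had between 353 and 384 CPM in the 4 libraries and a log2 value of -0.02 (adjusted p = 0.879), and RANBP1 had -0.08 (adjusted p = 0.415). RANBP3, a cofactor of XPO1 in the nucleus, had 118 and 111 CPM with sgNeg and 97.7 and 97.9 CPM with sgNPM1A. It passed the adjusted p but not the fold threshold (log2 fold change -0.23, adjusted p = 0.0298, edgeR), and its adjusted p was 0.0582 with DESeq2. Like those of IPO7, TNPO2 and TNPO3, its adjusted p did not stay under 0.05 in every fit that left out a library. Over all alternatives its log2 fold change lay between -0.27 and -0.19. RANBP9 and RANBP10, scaffold proteins that share the name but act outside transport, had log2 fold changes of -0.07 and 0.17 and were not called.

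**Figure D4:**
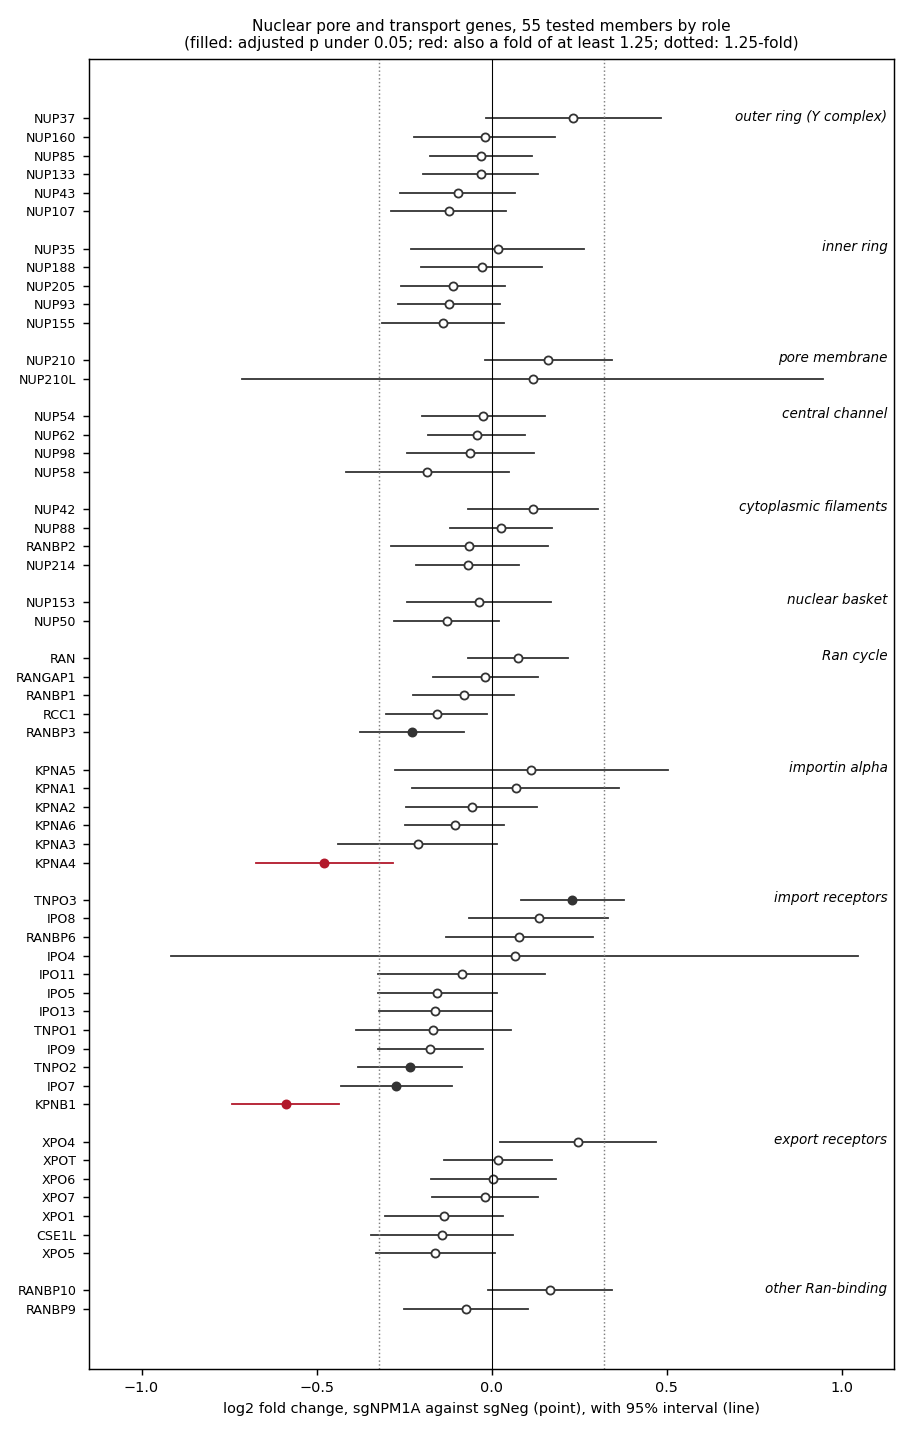
Log2 fold change of sgNPM1A against sgNeg (horizontal axis, points) with its 95% interval from edgeR (lines) for the 55 tested members, grouped by role, with dotted lines at the fold threshold. KPNB1 and KPNA4 (red) were called, IPO7, TNPO2, RANBP3 and TNPO3 (filled) passed the adjusted p only, and every nucleoporin interval includes 0.

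No nucleoporin among the members was called. Of the 24 nucleoporins 23 were tested, and 0 were called by edgeR, DESeq2 or limma-trend, 0 at an unadjusted p under 0.05. Pore proteins that the pattern leaves out are part of the wider list described below. Among these, TPR (-0.27) and AHCTF1 (-0.21) were lower and SEC13 (0.18) was higher at that unadjusted p (edgeR), and none was called. Over all 15718 tested genes 20.8% were called, and 2981 were lower and 2915 higher at that unadjusted p. The log2 fold changes of the 23 tested nucleoporins lay between -0.18 (NUP58) and 0.23 (NUP37) with a median of -0.04. In 19 of the 23 the 95% interval, taken gene by gene, lay within the fold threshold in both directions. This held for 3733 of all 15718 tested genes, which include genes of low count with wide intervals. It held for 3606 of the 8559 protein-coding genes whose mean reached 10 CPM.

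In the outer ring, whose Y-shaped complexes frame the pore on both faces, NUP107, NUP43, NUP133, NUP85 and NUP160 had log2 fold changes between -0.12 and -0.02. NUP37, a peripheral subunit of the ring, had 20.9 and 26.1 CPM with sgNeg and 26.2 and 29.2 CPM with sgNPM1A (log2 fold change 0.23, adjusted p = 0.162, edgeR). The summed level per length of the 6 outer ring genes was 137 and 139 CPM per kb with sgNeg and 135 and 137 CPM per kb with sgNPM1A, which overlapped. The inner ring genes NUP155, NUP93, NUP205, NUP188 and NUP35, which anchor the channel to the membrane, had values between -0.14 and 0.02. NUP210, a membrane-spanning nucleoporin, had 384 and 329 CPM with sgNeg and 383 and 414 CPM with sgNPM1A, which overlapped (log2 fold change 0.16, adjusted p = 0.179, edgeR). NUP210L, its testis relative, stayed under 0.9 CPM in each library.

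Of the FG nucleoporins, NUP62, the hub of the central channel, had 255 and 246 CPM with sgNeg and 243 CPM in each sgNPM1A library, or -0.04 on the log2 scale (95% interval from -0.18 to 0.10, adjusted p = 0.669, edgeR). NUP62 shares 11.8% of its words with other genes, mainly ENSG00000269179 and IL4I1, with which it overlaps. Its partners NUP54 and NUP58 had -0.02 and -0.18. NUP98, known from leukemia as a fusion partner of HOXA9 and other genes, had 163 and 141 CPM with sgNeg and 138 and 153 CPM with sgNPM1A, with a log2 value of -0.06 (adjusted p = 0.639). NUP214, also found in leukemia fusions, had between 113 and 123 CPM and a log2 value of -0.07 (adjusted p = 0.493, edgeR). NUP88, its partner on the cytoplasmic face, had between 100.4 and 103 CPM in the 4 libraries and a log2 fold change of 0.03, and 35.5% of its exonic bases overlap genes on the opposite strand (RABEP1 and RPAIN). RANBP2, the giant filament protein, had a log2 fold change of -0.06 with overlapping conditions, and 15.1% of its words occur in other genes, chiefly its RGPD copies. NUP42 had 0.12, and in the nuclear basket NUP153 had -0.04 and NUP50 -0.13 (adjusted p = 0.200, edgeR).

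Libraries of the same condition differed from each other in a shared way across these genes. The first sgNeg library was above the second in 46 of the 55 tested members, by a median of 0.12 on the log2 scale, and in 7825 of all 15718 tested genes. The second sgNPM1A library was above the first in 39 of the 55 members, by a median of 0.06, and in 7986 of all 15718 tested genes. The reads on all 59 genes made up 0.877% and 0.807% of the counts of the sgNeg libraries and 0.754% and 0.782% of those of the sgNPM1A libraries. The median size of the difference between conditions, regardless of sign and with 2 libraries in each, was 0.11 on the log2 scale. The 0.12 between the sgNeg libraries is a median of signed differences between single libraries, so these medians are unlike measures. Without sgNeg replicate 1 the median log2 fold change of the members was -0.01, with 28 negative and 27 positive values, and without sgNeg replicate 2 it was -0.11, with 42 negative and 14 positive values over 56 genes. KPNB1 and KPNA4 were called lower with each of the 4 libraries left out in turn, with log2 fold changes over all alternatives from -0.65 to -0.52 and from -0.60 to -0.35. IPO7, KPNA3 and NUP58 were called lower as well when sgNeg replicate 2 was left out, which made the count 5.

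**Figure D5:**
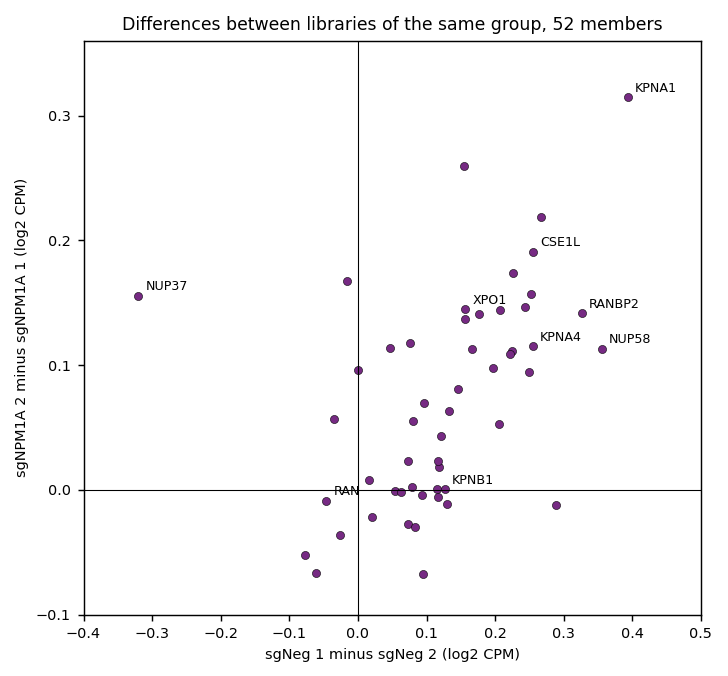
Difference between the sgNPM1A libraries (replicate 2 minus 1, vertical axis) against that between the sgNeg libraries (replicate 1 minus 2, horizontal axis), in log2 CPM, for the 52 members with at least 10 CPM. Of these, 35 lie above 0 on both axes, beside 5026 of all 15718 tested genes at any level.

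Genes of the same machinery whose symbols the pattern leaves out were followed with a list of 58, made up of other pore proteins, mRNA export, the SUMO cycle and the nuclear lamina. Of these 56 were tested, 4 were called lower and 0 higher by edgeR, DESeq2 or limma-trend, with 18 lower and 4 higher at an unadjusted p under 0.05. The calls are 7.14% of the genes tested from this list, beside the 10.3% lower and 10.5% higher over all tested genes. At that unadjusted p 2981 of the 15718 tested genes were lower and 2915 higher. The median log2 fold change of the wider list was -0.04. The called genes were SUN1, LMNA, NXT2 and ZC3H11A. SUN1, which spans the inner nuclear membrane and links the lamina to the cytoskeleton, fell from 39.4 and 39.1 CPM to 26.7 and 25.7 CPM (log2 fold change -0.58, adjusted p = 0.000338, edgeR). LMNA, which encodes the A-type lamins, fell from 520.2 and 449.9 CPM to 355 and 390.4 CPM (log2 fold change -0.38, adjusted p = 0.00610, edgeR). Its conditions did not overlap, but its adjusted p was 0.0747 without sgNeg replicate 1 and 0.0846 without sgNPM1A replicate 1. NXT2, a cofactor of the mRNA export receptor NXF1, fell from 25.6 and 22.4 CPM to 17.0 and 17.1 CPM (log2 fold change -0.49, adjusted p = 0.00428, edgeR), with an adjusted p of 0.0510 without sgNeg replicate 1. ZC3H11A, an mRNA export factor, fell from 235 and 236 CPM to 189 and 182 CPM (log2 fold change -0.34, adjusted p = 0.00219, edgeR), with an adjusted p of 0.0788 without sgNPM1A replicate 2. NXF1 itself had between 98.2 and 107 CPM in the 4 libraries and a log2 value of 0.04 (adjusted p = 0.701). TPR, the filament of the nuclear basket, passed the adjusted p at -0.27 (adjusted p = 0.00934, edgeR) but not the fold threshold, and so did MCM3AP, DDX39B and POLDIP3 at -0.31, -0.20 and -0.23. THOC7, of the THO complex that couples transcription to export, passed it in the other direction at 0.28 (adjusted p = 0.0160, edgeR). Without sgNeg replicate 1, SUN1 and ZC3H11A alone of the wider list were called.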

How the data were processed

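RNA was sequenced as read pairs from OCI-AML3 cells with sgNeg (2 libraries) or sgNPM1A (2 libraries), grouped by their labels. Reads were aligned to hg38 by the authors (STAR, Samtools), and the table they deposited holds counts per Ensembl gene that were not normalized. The counting program and annotation release are not given in the sources used here. The study names ERCC spike-ins, and no row of the table carries an ERCC name. The labels do not say that replicates were separate cultures (the study calls them biological replicates), so p-values measure the spread between these libraries, which may be technical.

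Symbols were found for 55646 of the 58037 rows by Ensembl identifier, and 45 pseudoautosomal Y copies were left out. Gene types and transcript lengths (Ensembl canonical transcript) came from GENCODE v44 mapped to GRCh37. Overlaps of exonic bases between genes were measured on its coordinates, and none of the positions printed here were taken from it. Positions and promoter sequences are from RefSeq on GRCh38.p14. edgeR 4.0.16 in R 4.3.3 was used with filterByExpr (minimum count 10), TMM factors between 0.985 and 1.02, robust dispersions (common biological coefficient of variation 0.0619) and its quasi-likelihood F test. Intervals are 95% from its standard error. CPM use all counts of a library, and fits without a library used non-robust dispersions. Shared 50-base words were counted on the GENCODE transcripts, on the sense strand. The fits were checked on simulated data.

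Alternatives were DESeq2 1.42.0, limma-trend (limma 3.58.1) on quantile-normalized log2 CPM, RLE, library size only, 2 other count filters, the replicate number as a block, other call thresholds and leaving out each library in turn. A crossed block was added after the data were examined. Members, lists and tests were chosen with earlier results of these data known. Called members, 16 core transport genes, called genes of the wider list and NPM1 were named by rule, and the remaining members and the wider genes named at under the fold threshold were added after their values were seen.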

Additional observations from a re-analysis of the deposited data

How the results depend on the processing

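KPNB1 and KPNA4 were the members called lower under every normalization, filter and test tried and with the replicate block, where 2 members were called each time. The same 2 were called with the crossed block, which was chosen after the data were examined. Other thresholds moved the counts. With no fold threshold 5 members were lower and 1 higher, and 8 genes of the wider list lower and 1 higher. With a fold of at least 2, 0 members and 0 genes of the wider list were lower, and 502 of all genes were lower and 498 higher. Leaving out each library in turn gave from 2 to 5 members lower, from 2 to 6 genes of the wider list lower and from 0 to 1 higher (LBR, without sgNPM1A replicate 1), and from 1078 to 1317 of all genes lower. In these fits a condition has a single library, which is assumed to vary like the pair of the other condition. The log2 fold change of NPM1 lay between -0.26 and -0.18 with adjusted p-values from 0.0545 to 0.437 in those fits, and limma-trend gave -0.42.

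The labels number the libraries 1 and 2 in each condition, and nothing else pairs them. The deviations of same-numbered libraries had, as a description, a correlation of -0.13 across the 15718 tested genes. The correlation was -0.52 across the 8856 genes with a mean over 10 CPM and -0.55 across the 55 members. With the replicate block the log2 fold change of NPM1 was -0.22 (adjusted p = 0.156), 2 members were called lower, and 1604 of all genes were lower and 1637 higher. The adjusted p of TNPO3, TNPO2 and RANBP3 with that block was between 0.0998 and 0.123. The crossed block paired sgNeg 1 with sgNPM1A 2 and sgNeg 2 with sgNPM1A 1, a pairing that no label gives. It was chosen after the data were examined, and where same-numbered deviations correlate negatively it lowers p-values by its construction. Its adjusted p-values are therefore no support for a change. With this block 2 members, 1918 genes lower and 1955 higher were called. An adjusted p of 0.05 or more without a block became one under 0.05 in 17 members, XPO1 among them (0.0125, edgeR). Outside the blocks and the fits without a library, RANBP3 had an adjusted p above 0.05 with DESeq2. With library size only, that of TNPO3 rose above 0.05, and those of IPO9 and RCC1 fell under it. No direction of a called value reversed. The cause of these shifts was not tested. The median of the members lay between -0.11 and -0.01 over all alternatives. At 10 CPM or more, 31 of 52 members had an interval inside the fold threshold, as had 3606 of 8559 protein-coding genes at that level. Whether an interval lies inside depends on the size of the difference as well as on the width of the interval.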

Other observations

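Of the 32 pseudogene and non-coding rows whose symbols match the pattern, 12 had no count in any library and 6 were tested, of which 0 were called. KPNB1-DT, a non-coding RNA that starts beside KPNB1, had 6 and 14 counts with sgNeg and 14 and 13 counts with sgNPM1A, too few to tell a change (log2 fold change 0.31, standard error 0.47, adjusted p = 0.673, edgeR). NUP50-DT, beside NUP50, had 201 and 248 counts with sgNeg and 271 and 287 counts with sgNPM1A (log2 fold change 0.20, adjusted p = 0.315, edgeR), and NUP153-AS1, antisense to NUP153, had 36, 37, 63 and 48 counts in the same order of libraries (adjusted p = 0.170). Whether the counting used strand is not given in the sources used here, so reads of NUP153-AS1 and NUP153 cannot be told apart where they overlap.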
